A study of Homo sapiens with 6 samples.

Results

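The genes of the aminoacyl-tRNA synthetases were compared between 22Rv1-ABHD5 cells grown without and with doxycycline (Dox). These members were the rows of the raw count table whose symbol was in a list of 36, of which 20 encode cytosolic and 16 mitochondrial enzymes. All 36 were present among the 27470 genes of the table, and all 36 passed the filter on low counts. 22Rv1 is a human castration-resistant prostate cancer line, here carrying an ABHD5 transgene behind a Dox-inducible promoter after infection with the lentivirus pInducer20-ABHD5 and selection with G418. ABHD5 is the coactivator of ATGL, the main triglyceride lipase. The control group is the engineered line in the absence of Dox and the OE group is the same line in its presence, each with 3 libraries after 48 h. The study profiled these cells to find which pathways ABHD5 induction changes. The Dox dose of these libraries is not given in the sources used here, libraries of parent cells with Dox were not analysed here, and so Dox and ABHD5 cannot be told apart.

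Each aminoacyl-tRNA synthetase joins its amino acid to the tRNAs that carry its anticodons, and the ribosome reads the product. Class I enzymes share a Rossmann-fold catalytic domain, and class II enzymes share an antiparallel beta-sheet fold. In the cytosol a group of synthetases is held on a scaffold as the multi-synthetase complex. Mitochondria use a separate set of nuclear-encoded enzymes, named with a final 2, apart from the glycyl- and lysyl-tRNA synthetases, whose genes GARS and KARS serve both compartments. When amino acids run short, uncharged tRNA activates the kinase GCN2 (EIF2AK4), translation of the transcription factor ATF4 rises, and ATF4 drives many cytosolic synthetase genes through C/EBP-ATF response elements.

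Sequencing depth was 3394672 to 5988151 counts on genes per library without Dox and 3460471 to 7271771 with Dox, and the lowest count of any member in any library was 13. Counts below were scaled to CPM after TMM normalization. In such values, fewer transcripts per cell and fewer cells that carry them cannot be told apart. ABHD5 itself had 63.5, 58.0 and 62.8 CPM without Dox and 125.9, 130.8 and 91.7 with Dox, a log2 fold change of 0.91 (adjusted p = 1.978e-04, standard error 0.15). Adjusted p-values are from the quasi-likelihood test of edgeR, with the Benjamini-Hochberg adjustment made over 12233 genes. Prostate epithelial markers were present, with summed levels of 2014 to 2132 CPM without Dox and 1330 to 1520 with Dox. At an adjusted p under 0.05, 6 of 11 were lower and 0 higher. Of all genes tested, 13.7% were lower and 11.9% higher. Endothelial markers (3 of 3) were at 0 in every library. Fibroblast markers summed to 4.96 to 9.60 CPM without Dox and 6.40 to 9.98 with Dox. Of 2 tested, COL1A1 was higher but lost that call in 6 of 13 settings. COL1A1 had at most 14 counts in any library without Dox and passed the filter on low counts only with its libraries with Dox, which favours rises. Leukocyte markers, of which 1 of 5 was at 0, summed to 3.13 to 5.27 CPM without Dox and 4.34 to 6.12 with Dox. Of 19 proliferation markers tested, 19 fell, where 13.7% of all genes did. The share of listed reads on no gene was 32.5% to 34.6% without Dox and 35.6% to 39.5% with Dox. The part of these falls or of this share in the results below was not tested.

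Promoter windows from RefSeq (GRCh38.p14, from 250 bases before to 50 after the start of transcription) were found for 30 of the 36 members, as 39 windows. DARS, LARS, VARS, YARS, AARS2 and VARS2 were not matched. The core of the C/EBP-ATF response element, TGATGNAA on either strand, was present in the windows of 7 of 16 cytosolic genes (AARS, CARS, GARS, IARS, MARS, NARS and TARS) and 1 of 14 mitochondrial genes (YARS2). Counted by window, 7 of 21 cytosolic and 1 of 18 mitochondrial windows held it, beside 3.62% of all 35116 windows. The 7 cytosolic matches are shown with 10 bases on each side, as read on the strand of the gene, because they mark the members with this element, with the match in capitals.
AARS: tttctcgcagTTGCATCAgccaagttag
CARS: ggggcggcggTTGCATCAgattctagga
GARS: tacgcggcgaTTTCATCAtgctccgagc
IARS: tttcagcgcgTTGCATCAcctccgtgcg
MARS: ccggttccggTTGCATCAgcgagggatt
NARS: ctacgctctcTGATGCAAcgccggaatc
TARS: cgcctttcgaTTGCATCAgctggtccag

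An interferon-stimulated response element, GAAA, any 2 bases and GAAA on either strand, was found in the second of the 2 windows of WARS, from base -55 to base -46 before the start, and in EARS2. Counted by window, that is 1 of 21 cytosolic and 2 of 18 mitochondrial windows, against 3.57% of all windows. The 2 mitochondrial windows are overlapping windows of EARS2 that hold the same site. The E-box CACGTG was found in IARS, CARS2, EARS2 and MARS2 (1 of 21 cytosolic and 4 of 18 mitochondrial windows), against 7.26% of all windows. The E-box of EARS2 was likewise counted in both of its windows. CCAAT, on either strand, was in the windows of 7 cytosolic and 9 mitochondrial genes (9 of 21 and 11 of 18 windows) and in 34.6% of all windows. Some of these CCAAT sites, in TARS, EARS2 and WARS2, were also counted in 2 overlapping windows. The WARS window (chr14:100375298-100375597, minus strand) is printed because WARS rose most among the members, with the element in capitals. The RARS window (chr5:168486221-168486520, plus strand) is printed for the largest fall, and none of these 4 motifs was found in it. HARS and HARS2 are transcribed away from each other from starts 85 bases apart. The HARS window (chr5:140691321-140691620, minus strand) is printed to show the 84 bases between these starts, in capitals. A match is a description of letters and not a site shown to be bound.
WARS: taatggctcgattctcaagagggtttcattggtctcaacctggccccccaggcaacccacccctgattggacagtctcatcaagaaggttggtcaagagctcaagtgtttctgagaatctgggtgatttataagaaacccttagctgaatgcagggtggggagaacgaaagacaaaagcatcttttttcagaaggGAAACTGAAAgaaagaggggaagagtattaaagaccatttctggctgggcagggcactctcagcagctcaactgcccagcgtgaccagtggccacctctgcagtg
RARS: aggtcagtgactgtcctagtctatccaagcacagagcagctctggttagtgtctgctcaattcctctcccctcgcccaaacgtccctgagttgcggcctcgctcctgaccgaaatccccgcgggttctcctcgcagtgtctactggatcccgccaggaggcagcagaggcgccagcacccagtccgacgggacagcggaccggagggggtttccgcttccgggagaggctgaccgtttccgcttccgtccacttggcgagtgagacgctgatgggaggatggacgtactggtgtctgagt
HARS: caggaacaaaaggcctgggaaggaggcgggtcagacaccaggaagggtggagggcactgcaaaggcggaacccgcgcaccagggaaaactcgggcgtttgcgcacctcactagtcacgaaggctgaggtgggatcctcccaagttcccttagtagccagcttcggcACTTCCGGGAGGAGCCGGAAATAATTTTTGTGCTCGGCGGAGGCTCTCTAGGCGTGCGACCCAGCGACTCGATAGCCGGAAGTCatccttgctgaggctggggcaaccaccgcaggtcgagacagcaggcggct

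With Dox, 5 cytosolic synthetase genes fell (RARS, FARSA, TARS, KARS and LARS), 2 rose (WARS and VARS), and 2 mitochondrial genes fell (FARS2 and LARS2). That is 9 of 36 members, or 25.0%, against 25.5% of all 12233 genes tested, so the share of members that changed was close to the background. By direction, 7 of 36 members fell where 13.7% of all genes did, and 2 rose where 11.9% did. The changes were small. No member (0 of 36) moved by more than 1 on the log2 scale, which 8.06% of all genes did, and the median size of the log2 fold change was 0.19 for the members and 0.30 for all genes. The median log2 fold change was -0.17 for the cytosolic and -0.09 for the mitochondrial genes, beside 0.02 for all genes. Below 0 were 17 of the 20 cytosolic and 10 of the 16 mitochondrial genes. Scaling by library totals alone moved the median of all genes from 0.02 to 0.14, left 14 and 7 below 0, and turned the mitochondrial median to 0.03. Such a change shifts all genes alike. The medians relative to all genes, -0.19 and -0.10, were therefore the same under both scalings by construction. Without replicate 3 with Dox the cytosolic median was -0.09 and the mitochondrial -0.13, so that their order turned, and without replicate 3 without Dox the mitochondrial median was -0.02. The conditions did not overlap in 11 of 36 members, against 39.5% of all genes. Of these 9 lay below, against 20.5%, and 2 above, against 19.0%. Among them were FARSB, HARS and YARS, which did not pass the test.

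**Figure D1:**
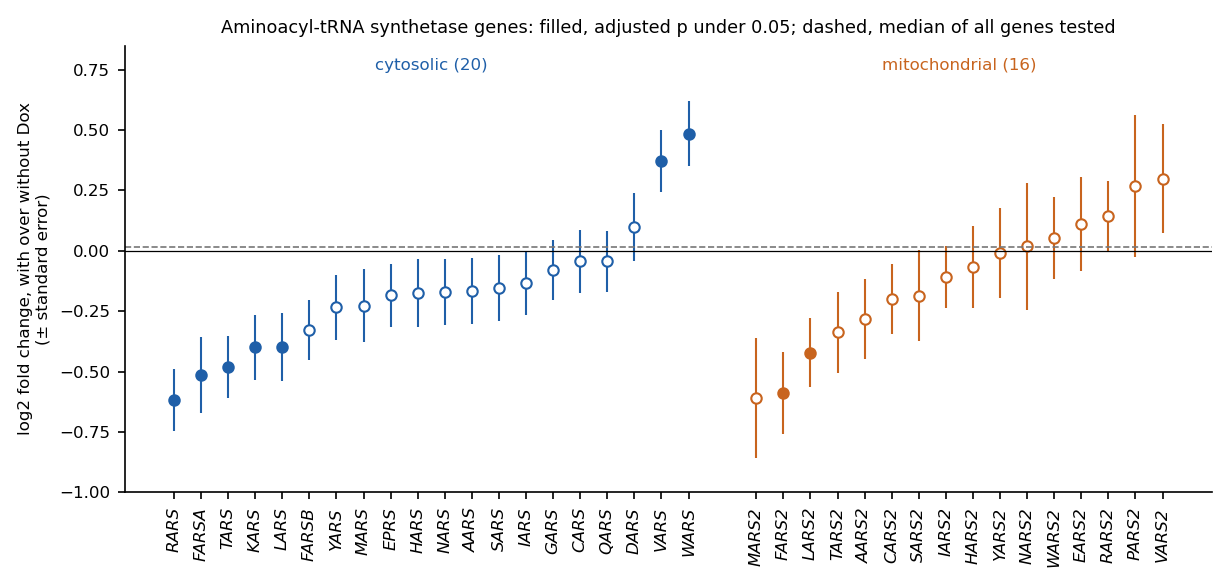
Log2 fold change with over without Dox for the 20 cytosolic (blue) and 16 mitochondrial (orange) synthetase genes, with bars of 1 standard error, filled where the adjusted p was under 0.05 (edgeR's quasi-likelihood test). Most cytosolic points lie below 0, RARS is the lowest at -0.62 and WARS the highest at 0.49, and the mitochondrial points spread from -0.61 to 0.30.

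RARS, which encodes the arginyl-tRNA synthetase of the multi-synthetase complex (chromosome 5 of hg38, 168486451 to 168519301), had the largest cytosolic fall. It had 420.3, 432.3 and 425.2 CPM without Dox and 265.5, 319.5 and 248.6 with Dox. The libraries without Dox lay within a few percent of each other, and each stood well above all 3 libraries with Dox. Its log2 fold change was -0.62 (adjusted p = 0.001633, standard error 0.13, quasi-likelihood test of edgeR), and the mean with Dox was 65.2% of that without. RARS was past the threshold under each of 14 alternative settings, with -0.73 to -0.50.

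TARS, the threonyl-tRNA synthetase gene (chromosome 5, 33440696 to 33468091), had 377.2, 352.9 and 364.8 CPM without Dox and 253.3, 300.0 and 232.6 with Dox. The conditions were again separate. It fell by 0.48 on the log2 scale (adjusted p = 0.01005, standard error 0.13, same test). Without replicate 1 with Dox, the adjusted p was 0.0551.

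FARSA encodes the catalytic alpha subunit of the cytosolic phenylalanyl-tRNA synthetase (chromosome 19, 12922479 to 12934037). It had 255.2, 210.0 and 150.8 CPM without Dox and 132.0, 145.0 and 153.0 with Dox. Replicate 3 without Dox lay below replicate 3 with Dox, so the conditions overlapped. The log2 fold change was -0.51 (adjusted p = 0.0251, standard error 0.16, same test), and it was -0.34 without replicate 1 without Dox (adjusted p = 0.175). Without replicate 2 without Dox or replicate 1 with Dox, the adjusted p was 0.0539 and 0.111. FARSB, the beta subunit of the same tetramer, had 110.2, 109.8 and 102.3 CPM without Dox and 83.7, 92.4 and 81.2 with Dox. Its conditions did not overlap, but its log2 fold change of -0.33 (standard error 0.12) missed the threshold (adjusted p = 0.06318, same test), except without replicate 2 with Dox (0.0421) and with the replicate block.

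KARS, the lysyl-tRNA synthetase gene that serves both cytosol and mitochondria (chromosome 16, 75627474 to 75648643), had 163.8, 191.3 and 152.9 CPM without Dox and 124.6, 144.7 and 116.0 with Dox. Every library with Dox was below every library without. The log2 fold change was -0.40 (adjusted p = 0.03457, standard error 0.13, same test). It missed the threshold when replicate 1 or 2 without Dox, or replicate 1 or 3 with Dox, was left out (adjusted p = 0.0754, 0.157, 0.118 and 0.0977). LARS, the leucyl-tRNA synthetase gene, whose product also senses leucine for mTORC1 (chromosome 5, 146110566 to 146182696), had 181.3, 174.3 and 159.9 CPM without Dox and 135.0, 152.2 and 105.6 with Dox. These groups were separate too, with a wider spread with Dox. LARS had a log2 fold change of -0.40 (adjusted p = 0.04555, standard error 0.14), and its adjusted p was the largest among the 9 genes. It was past the threshold in only 1 of the 6 fits that left out a library, that without replicate 2 with Dox, and was -0.26 without replicate 3 with Dox (adjusted p = 0.174). The adjusted p was 0.152, 0.101 and 0.0551 without replicates 1, 2 and 3 without Dox and 0.0999 without replicate 1 with Dox.

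WARS, the tryptophanyl-tRNA synthetase gene (chromosome 14, 100333790 to 100376805), is also known as an interferon-inducible gene. It had 46.0, 45.0 and 44.9 CPM without Dox and 65.0, 58.4 and 66.2 with Dox. The libraries without Dox were nearly equal and all 3 with Dox were higher, 39.7% higher in the mean. The log2 fold change was 0.49 (adjusted p = 0.0137, standard error 0.14, same test), and leaving out replicate 1 gave an adjusted p of 0.0569 (the library without Dox) or 0.0578 (that with Dox). VARS, the valyl-tRNA synthetase gene (chromosome 6, 31777518 to 31795752), had 90.1, 91.5 and 79.8 CPM without Dox and 101.6, 113.0 and 122.3 with Dox. Every library with Dox was above every library without. Its log2 fold change was 0.37 (adjusted p = 0.04312, standard error 0.13, same test), and it lost the call in each of the 6 fits that left out a library (adjusted p = 0.0558 to 0.159) while the log2 fold change stayed between 0.30 and 0.44.

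**Figure D2:**
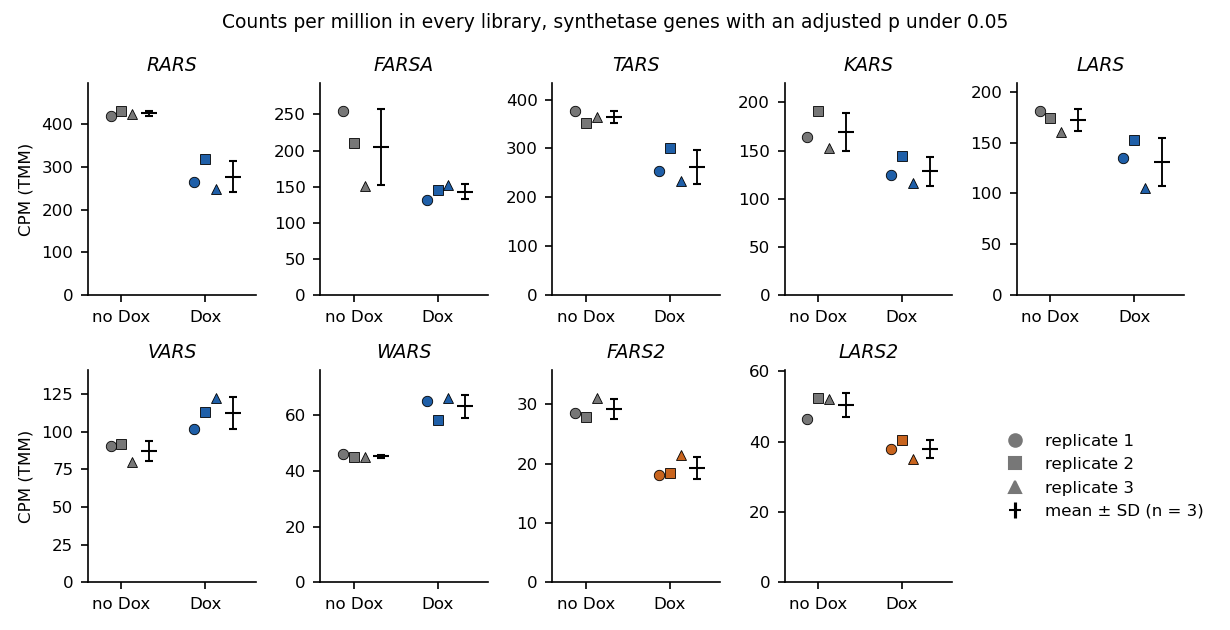
CPM after TMM normalization in each library for the 9 synthetase genes with an adjusted p under 0.05, with grey for libraries without Dox, blue (cytosolic) or orange (mitochondrial) for those with Dox, a symbol for each replicate number, and bars for the mean and SD of 3 libraries. The conditions are separate in 8 of the 9 panels, and in FARSA replicate 3 without Dox (150.8 CPM) lies among the libraries with Dox.

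Among the mitochondrial genes, FARS2, which encodes the single-chain phenylalanyl-tRNA synthetase of mitochondria (chromosome 6, 5261044 to 5829192), had 28.5, 27.9 and 31.1 CPM without Dox and 18.1, 18.4 and 21.4 with Dox. All libraries with Dox were lower. It fell by 0.59 on the log2 scale (adjusted p = 0.01665, standard error 0.17, same test), and the adjusted p became 0.0641 when replicate 3 without Dox was left out and 0.0637 for replicate 1 with Dox. LARS2, the mitochondrial leucyl-tRNA synthetase gene (chromosome 3, 45388561 to 45554726), had 46.5, 52.4 and 52.2 CPM without Dox and 37.8, 40.4 and 35.2 with Dox. Again the conditions did not overlap. Its log2 fold change was -0.42 (adjusted p = 0.03948, standard error 0.14, same test). It kept the call in 4 of 14 alternative settings and in only 1 of the 6 fits without a library, that without replicate 2 with Dox. In the other 5 its adjusted p was 0.0599, 0.102 and 0.114 without replicates 1, 2 and 3 without Dox, and 0.0999 and 0.103 without replicates 1 and 3 with Dox. MARS2, the mitochondrial methionyl-tRNA synthetase gene, had the lowest mitochondrial log2 fold change, -0.61, but with a standard error of 0.25 it was not past the threshold (adjusted p = 0.08394, same test). Its levels were 19.9, 13.03 and 22.9 CPM without Dox and 9.79, 10.02 and 16.3 with Dox, where replicate 3 with Dox overlapped the libraries without. Without that library its log2 fold change was -0.94 (adjusted p = 0.0137), and without replicate 2 without Dox it was -0.80 (adjusted p = 0.0274). With no filter the adjusted p was 0.0298, and with the replicate block 0.0313. In the other 4 fits that left out a library it was -0.59 to -0.43 (adjusted p = 0.169 to 0.318). TARS2, the mitochondrial threonyl-tRNA synthetase gene, had 55.9, 51.8 and 50.3 CPM without Dox and 40.5, 53.2 and 32.97 with Dox, where replicate 2 with Dox lay among the libraries without. Its log2 fold change was -0.34 (adjusted p = 0.1557), and -0.53 without replicate 2 with Dox (adjusted p = 0.0200) or -0.18 without replicate 3 with Dox (adjusted p = 0.483).

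A cytosolic and a mitochondrial gene for the same amino acid were compared in 15 pairs of members. EPRS, for glutamate and proline, was paired with EARS2 alone and not with PARS2. Both genes of a pair fell for phenylalanine (FARSA and FARS2) and leucine (LARS and LARS2). The arginine pair parted. RARS2, the mitochondrial enzyme, had 69.2, 68.2 and 66.7 CPM without Dox and 67.2, 93.0 and 66.5 with Dox, so that 2 of its libraries with Dox were at the level without Dox and replicate 2 stood above. The log2 ratio of RARS to RARS2 was 2.64 ± 0.04 in the absence and 1.88 ± 0.10 in the presence of Dox (SD, n = 3 each), and these ratios did not overlap. For tryptophan, WARS2 had 21.2, 24.5 and 23.7 CPM without Dox and 24.1, 23.1 and 24.6 with Dox, which overlapped, and the log2 ratio of WARS to WARS2 was 0.96 ± 0.13 in the absence and 1.38 ± 0.05 in the presence of Dox (SD, n = 3 each), also without overlap. CARS to CARS2 was the other pair whose ratios did not overlap, with 1.06 ± 0.02 and 1.21 ± 0.18 (SD, n = 3 each), though neither gene was past the threshold. Its conditions barely parted, at 1.078 in replicate 3 without Dox and 1.08 in replicate 1 with Dox. Replicate 3 with Dox was the highest, at 1.407. How often ratios of other genes part in this way was not measured. In the other 12 pairs the ratios overlapped. The differences between paired genes were described and not tested.

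**Figure D3:**
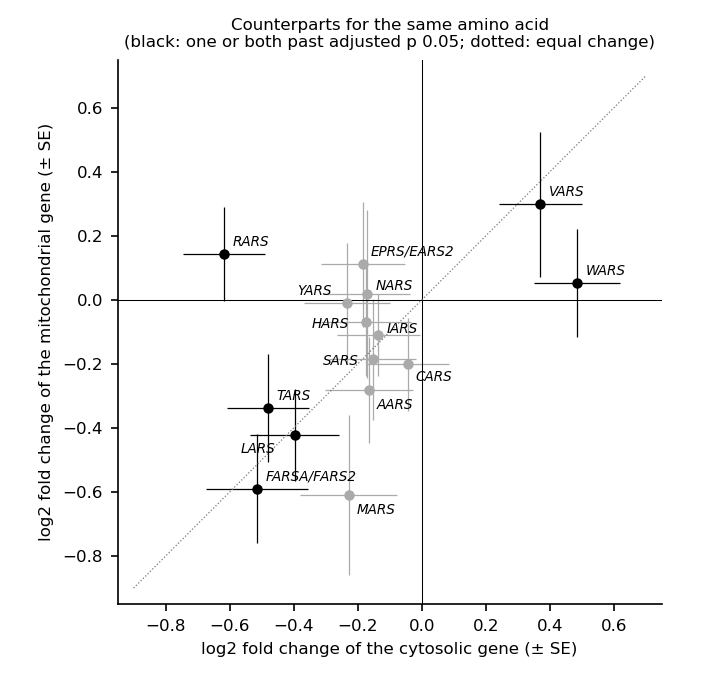
Log2 fold change of the mitochondrial gene (vertical) against that of the cytosolic gene (horizontal) for the same amino acid, 15 pairs, with bars of 1 standard error, black where at least 1 of both was past the threshold and a dotted line where both would change equally. FARSA/FARS2 and LARS/LARS2 lie near the dotted line at the lower left, whereas RARS/RARS2 lies far above it (-0.62 against 0.14).

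HARS and HARS2, which encode the cytosolic and mitochondrial histidyl-tRNA synthetases from the divergent promoter shown above, had log2 fold changes of -0.17 (standard error 0.14) and -0.07 (standard error 0.17). HARS had 44.4, 51.2 and 47.3 CPM without Dox and 44.1, 41.5 and 41.0 with Dox, just below (adjusted p = 0.403, same test). HARS2 had 30.0, 35.7 and 41.2 CPM without Dox and 28.5, 36.7 and 37.2 with Dox, which overlapped (adjusted p = 0.8135), and its sign turned under library totals alone (0.06) and without replicate 3 without Dox (0.06) or replicate 1 with Dox (0.04). GARS, the glycyl-tRNA synthetase gene of both compartments, had 143.9, 142.3 and 134.2 CPM without Dox and 140.9, 138.0 and 119.4 with Dox. Those overlapped, with a log2 fold change of -0.08 (adjusted p = 0.679, standard error 0.12), which was 0.04 under library totals alone. KARS, the other gene of both compartments, fell as given above.

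Of the 8 synthetase genes of the multi-synthetase complex, 3 fell (RARS, KARS and LARS) and 0 rose (37.5%, where 13.7% of all genes fell, 11.9% rose and 25.5% did either), with a median log2 fold change of -0.21. Their summed level was 1584, 1672 and 1627 CPM without Dox and 1298, 1490 and 1173 with Dox, lower in all 3, but under library totals alone the conditions overlapped and the mean fell by 11.8% in place of 18.9%. The 12 cytosolic genes outside the complex had 2 falls and 2 rises (33.3%) and a median of -0.17. No difference between these subsets was tested. The 3 scaffold genes did not pass the threshold. AIMP1, which binds the arginyl-tRNA synthetase, had 96.9, 121.3 and 126.4 CPM without Dox and 99.6, 117.2 and 106.1 with Dox (log2 fold change -0.10, adjusted p = 0.6445, same test). AIMP2 had -0.20 (adjusted p = 0.6853) and EEF1E1 0.35 (adjusted p = 0.2311). By catalytic class, the 10 cytosolic class I genes (EPRS, a fusion of both classes, counted in each) held 2 falls and 2 rises, and the 11 of class II held 3 falls and 0 rises, with medians of -0.16 and -0.17. Of the 7 cytosolic genes with a response element core in the window, 7 were below 0 and 1 fell (TARS, 14.3%, against 13.7% of all genes), with a median log2 fold change of -0.17. The 9 with a window but no core held 3 falls and 1 rise (44.4%, against 25.5% of all genes) and a median of -0.18.

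The summed level of the 20 cytosolic genes was 3535, 3677 and 3404 CPM without Dox and 2924, 3289 and 2734 with Dox, and the mean fell by 15.7%. Leaving RARS out, the mean fell by 13.1%. For the 16 mitochondrial genes the sum was 722.2, 683.8 and 744.0 CPM without Dox and 659.6, 674.3 and 628.5 with Dox, and the mean fell by 8.73%. A large part of that sum was IARS2, which was not past the threshold. It had 270.1, 233.5 and 294.1 CPM without Dox and 269.6, 237.7 and 233.5 with Dox, which overlapped. The mitochondrial sum without IARS2 was not computed. In both sums each library with Dox lay below each without under TMM scaling. The only other scaling used for the sums was library totals. Under library totals alone the conditions overlapped in both, and the cytosolic mean fell by 8.38%. It fell by 5.55% with RARS left out, and the mitochondrial mean fell by 0.789%. The 13 cytosolic genes that did not pass the threshold had log2 fold changes from -0.33 (FARSB) to 0.10 (DARS, for aspartate), and EPRS, which charges both glutamate and proline, had -0.18. Of the 14 mitochondrial genes that did not pass, the values ran from -0.61 (MARS2) to 0.30 (VARS2, for valine). PARS2, the mitochondrial prolyl-tRNA synthetase gene, had the largest standard error, 0.29, with a log2 fold change of 0.27, which its data could not resolve. This limit was not particular to PARS2. Among all members, the smallest size of a log2 fold change past the threshold was 0.37 (VARS).

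Genes that work with the synthetases were counted against the 25.5% of all genes past the threshold (11.9% higher and 13.7% lower). Of 4 genes that complete charging in mitochondria, 1 fell (25.0%), QRSL1, a subunit of the amidotransferase that makes glutaminyl-tRNA there (35.3, 45.9 and 39.8 CPM without Dox, 25.9, 33.1 and 25.5 with Dox, log2 fold change -0.53, adjusted p = 0.02818, same test). QRSL1 lost its call under library totals alone (0.0813) and without replicate 2 or 3 without Dox (0.111 and 0.0613) or replicate 1 or 3 with Dox (0.104 and 0.0806). Among 15 genes of tRNA maturation and export, 3 fell and 2 rose (33.3%). XPOT, the nuclear exporter of tRNA, had 22.2, 23.9 and 22.5 CPM without Dox and 39.8, 36.5 and 31.8 with Dox, clearly separate, with a log2 fold change of 0.65 (adjusted p = 0.006937). It was past the threshold in each of 14 alternative settings. RTCB, the ligase that joins the exons of spliced tRNA, had -0.44 (adjusted p = 0.01735) and lost its call without replicate 3 of either condition (0.0645 without Dox and 0.0550 with Dox) and under library totals alone (0.0704). TSEN54, of the tRNA splicing endonuclease, and XPO5, an exporter of small RNAs, also fell (-0.49 and -0.46), and KIAA0391, the catalytic subunit of mitochondrial RNase P, rose (0.54). Each of these 3 lost its call in at least 3 of 14 alternative settings. Of 7 genes that deliver charged tRNA to the ribosome, 1 rose (14.3%), EEF1A2, with 0.83 (adjusted p = 0.001618). Trans-editing and selenocysteine genes had no call (0 of 4 and 0 of 3 tested).

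In the route that senses uncharged tRNA, 1 of 11 genes rose and 1 fell (18.2% past the threshold, against 25.5% of all genes). GCN1, which couples stalled ribosomes to GCN2, had 203.5, 215.2 and 211.2 CPM without Dox and 159.4, 149.4 and 136.7 with Dox, a log2 fold change of -0.50 (adjusted p = 0.005151, same test). IMPACT, which holds GCN2 back by binding GCN1, had 24.0, 23.0 and 31.4 CPM without Dox and 39.6, 45.4 and 48.7 with Dox, a log2 fold change of 0.76 (adjusted p = 0.00286). Both kept the call in each of 14 alternative settings. EIF2AK4 had -0.33 (adjusted p = 0.1481) and ATF4 had -0.29 (adjusted p = 0.08872), neither past the threshold. Of 29 ATF4 amino acid response genes tested, 8 fell and 4 rose, 41.4% against the 25.5% of all genes. Their median log2 fold change was -0.25. Of the 4 rises, CHAC1 had at most 18 counts in any library without Dox. It passed the filter on low counts only with its libraries with Dox, which favours rises, so the tally is a description only. The falls included GPT2, which makes alanine (-1.15), PHGDH, which opens serine synthesis (-1.18), and SLC1A5, a glutamine transporter (-1.01), and the rises included ATF5, a transcription factor (1.10), each with an adjusted p of at most 5.253e-05 (same test).

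WARS was set beside other interferon-stimulated genes. Of 12 such genes tested out of 22, 4 rose and 0 fell, which is 33.3% past the threshold against 25.5% of all genes (11.9% higher and 13.7% lower). Of these 4, GBP2, IRF7 and PSMB8 had at most 13 counts in any library without Dox and passed the filter on low counts through their levels with Dox, which favours rises, so the tally is a description only. GBP2, a guanylate-binding protein gene, had 0.784, 0.620 and 1.57 CPM without Dox and 4.57, 7.24 and 7.49 with Dox, with a log2 fold change of 2.56 (adjusted p = 2.674e-04, same test), from levels near the limit of 3 counts per library without Dox. STAT2, which carries the interferon signal to the nucleus, had 0.56 (adjusted p = 0.01689, and 0.0825 without replicate 2 without Dox). IRF7, an interferon-induced transcription factor, had 1.49 and PSMB8, an immunoproteasome subunit, 1.26, with calls lost without replicate 1 or 2 without Dox for IRF7 (0.0517 and 0.0604) and in 6 of 13 settings for PSMB8. IRF1, a transcription factor, had -0.42 and was not past the threshold (adjusted p = 0.3957).

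**Figure D4:**
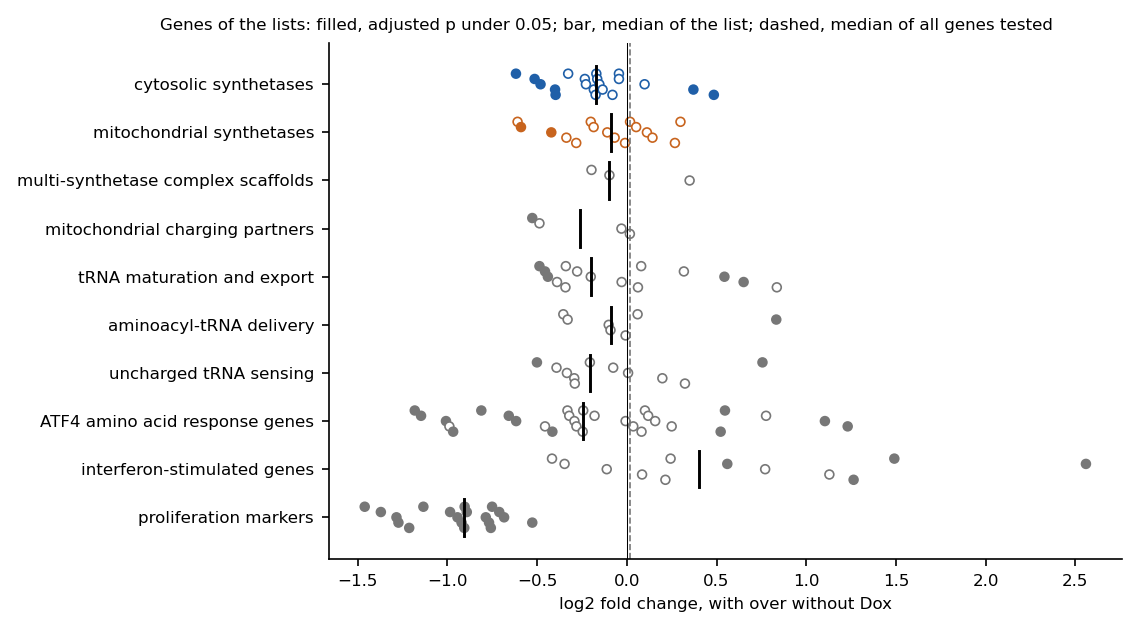
Log2 fold change with over without Dox of the tested genes of each list, filled where the adjusted p was under 0.05, with a black bar at the list's median and a dashed line at the median of all genes (0.02). The synthetase genes lie closer to 0 than the proliferation markers, whose median is -0.91, and the interferon-stimulated genes reach 2.56 (GBP2).

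Read counts of some members are uncertain because the use of strand in counting is not stated. In GENCODE 44, exons of a gene on the opposite strand lie within the last 1000 bases of HARS (WDR55), of MARS (DDIT3) and of WARS (ENSG00000258666), and 3ʹ reads of these pairs could be counted together. DDIT3 had a log2 fold change of 0.16 (adjusted p = 0.6011, same test). RARS, KARS and WARS have pseudogenes in the annotation, between which reads could be split, while TARS, VARS, FARSA, LARS, FARS2 and LARS2 have none under their names.

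The calls of several of the 9 genes depended on the scaling. Under library totals alone, FARSA, KARS, LARS, FARS2 and LARS2 lost theirs, which left RARS and TARS as falls and WARS and VARS as rises, 11.1% of the members beside 27.1% of all genes. Upper-quartile normalization lost KARS, LARS and LARS2. Without replicate 1 with Dox, RARS was the only member past the threshold.

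**Figure D5:**
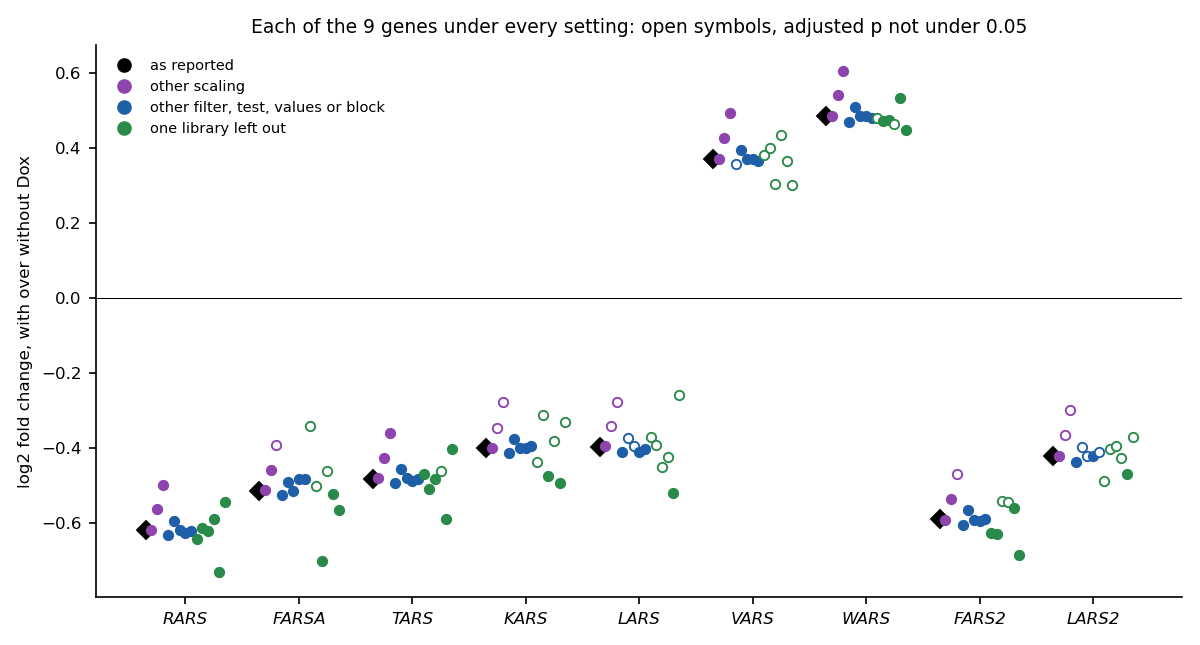
Log2 fold change of the 9 genes as reported (black diamonds), under other scalings (purple), under another filter, test, set of values or the replicate block (blue) and with 1 library left out (green), open where the adjusted p was not under 0.05. RARS is filled throughout (-0.73 to -0.50), VARS is open in all 6 fits that left out a library, and all 9 genes keep their sign.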

How the data were processed

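RNA from 3 libraries without Dox and 3 with Dox was prepared with a QuantSeq 3ʹ kit (REV in the methods, FWD in the sample labels). STAR, HTSeq and edgeR, and the build hg38, are named in the submitters' processing notes. The authors deposited raw counts for each gene symbol, without normalization. The annotation and strand setting are not given in the sources used here. The authors also deposited normalized values per library, a signal scaled to similar totals by a method not stated, which served as an alternative after log2(value + 1). Lines for reads without a gene (32.5% to 39.5% of all listed) and for ambiguous reads (3.05% to 3.37%) entered neither the library sizes nor the tests.

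Counts were tested with edgeR 4.0.16 in R 4.3.3 after TMM scaling and its filterByExpr step, by the quasi-likelihood test, at a Benjamini-Hochberg adjusted p under 0.05 over all 12233 genes. Standard errors were derived from the F statistic. DESeq2 1.42.0 and limma 3.58.1 were alternatives. On simulated counts of 12233 genes for this comparison, the test found 74% of the 2-fold changes and 93% of the 4-fold changes, with 1.76% false among its calls. Smaller changes were not simulated and no member changed 2-fold, so the share found at the sizes seen in the members is not known. A count of 3 is 0.413 to 0.884 CPM on library totals. This covers counting error only, since reads carry no molecular identifiers. Each pair of replicates differed by more than sampling noise (chi-square per degree of freedom 4.07 to 11.3). Nothing says that replicates are separate cultures, so p-values measure the spread between these libraries, which may be technical.

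The members and gene lists were chosen with earlier results of these data known, and the lists were compiled by hand. The list's PRORP is KIAA0391 in the table. Members with an adjusted p under 0.05 are given per library, as are the next 3 by adjusted p, GARS, KARS, HARS and HARS2. From other lists up to 4 genes per direction with the smallest adjusted p could be named, plus the scaffold genes, ATF4 and EIF2AK4. RARS2, WARS2, CARS, CARS2, IARS2, IRF1, DDIT3, DARS, EPRS, PARS2 and VARS2 were named after their values were seen. Sums on library totals were an alternative chosen after seeing the data. Gene coordinates are from GENCODE 44 on hg38, and promoters from RefSeq on GRCh38.p14.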

Additional observations from a re-analysis of the deposited data

How the results depend on the processing

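The sign of the 9 genes past the threshold held under all 14 alternatives, and RARS alone also held its call under all of them. The 5 falls among cytosolic genes became 3 with upper-quartile normalization and 2 under library totals alone, and 1 to 6 across the fits without a library. The 2 rises became 1 without a filter and 0 to 1 across the fits without a library. The 2 mitochondrial falls became 1 under each of upper-quartile normalization, a minimum of 10 counts per library, DESeq2, and the values normalized by the authors, 0 under library totals alone, and 0 to 3 across the fits without a library. Of the 36 members, 2.78% to 27.8% were past the threshold across these fits, beside 17.2% to 24.7% of all genes tested. The median log2 fold change of the cytosolic genes was -0.05 under library totals alone, and -0.238 to -0.094 across the fits without a library. That of the mitochondrial genes was -0.033 with upper-quartile normalization and 0.034, reversed, under library totals alone, and -0.136 to -0.022 across the fits without a library. All genes moved alike with these scalings, so by construction both values relative to the median of all genes stayed at -0.19 and -0.10. Signs of genes that were not past the threshold turned for GARS under library totals alone (0.041) and for HARS2 under library totals alone (0.055), and when replicate 3 without Dox (0.057) or replicate 1 with Dox (0.044) was left out. The cause of the other changes was not tested. In fits without 1 library, the smaller number of libraries cannot be told apart from the weight of the library left out. The number of genes past the threshold stayed within 1.5 times of 3125 under each alternative. The deviations of libraries with the same replicate number correlated by -0.01, 0.23 and 0.09, and only the second of these is over 0.1, so the numbers were not taken as pairs. With the replicate block the median log2 fold change was -0.175 for cytosolic and -0.087 for mitochondrial genes, and 3537 genes were past the threshold, and FARSB and MARS2 joined the falls. Standard errors of the members were 0.123 to 0.293, with the highest for PARS2, whose lowest count was 13.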
